A study of Mus musculus with 6 samples.

Results

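AMPA receptors, the ion channels that carry most fast excitatory transmission in the brain, and their auxiliary subunits were followed in ribosome-bound RNA from 2 lines of cortical cells in mice. The set held 9 genes, chosen by name with earlier results of these data known, of 18193 genes with at least 1 probe set naming that gene alone. They were the pore subunits Gria1, Gria2, Gria3 and Gria4, the cornichons Cnih2 and Cnih3, and Cacng2, Cacng3 and Cacng8 of the transmembrane AMPA receptor regulatory proteins (TARPs). The array carried 18 probe sets for them among 45037, and 16 of these were among the 21291 tested, which had a mean intensity of at least 50 in at least 1 group. The RNA came from translating ribosome affinity purification (TRAP): a transgene on a bacterial artificial chromosome (BAC) places a tagged ribosomal protein in cells that use a driver gene, and their ribosomes are pulled out with the bound messenger. One group was the BAC line ES691, driven by S100a10, and the other the BAC line DU9, driven by Glt25d2, a gene now named Colgalt2. Each had 3 biological replicates from cortex of untreated mice, each on 1 array, on an FVB background crossed for 3 to 5 generations to C57BL/6. Each driver is represented by a single line, age and sex are not given in the sources used here, and the series text says that the S100a10 BAC also marks some cells that are not neurons.

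An AMPA receptor is a tetramer of pore subunits, GluA1 to GluA4, encoded by Gria1 to Gria4. GluA2 carries an arginine in its pore, put there by RNA editing, which keeps calcium out; receptors without it let calcium through and are well known in interneurons, while most receptors of cortical pyramidal cells contain GluA2. TARPs and cornichons bind the pore, help it reach the synapse and slow its closing and desensitisation.

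The series title names both lines pyramidal cells and sets them against each other. The driver genes followed the labels: S100a10 had 15486 ± 2417 in S100a10 and 3237 ± 179 in Glt25d2 arrays, and Colgalt2 had 11.6 ± 0.198 and 1077 ± 263 (SD, n = 3 each). The median intensity of all probe sets was 20.4 to 21.3 in Glt25d2 and 35.5 to 35.8 in S100a10 arrays, and the cause of that gap was not tested. The median tested probe set differed by 0.55 (log2, S100a10 minus Glt25d2) on the deposited scale; quantile normalization gave -0.06 and centring each array on its median -0.21. The calls were 9405 higher and 934 lower as deposited, 3574 and 4128 after quantile normalization, and 3363 and 6447 after centring. Glt25d2 replicate 3 stood apart: 1621 tested probe sets, or 7.61%, were over 4-fold lower there than in replicates 1 and 2 on average, against at most 18 for any other array in its own group. The differences of the members below are therefore given with and without that array.

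Markers of other cells differed between the groups for some cell types and overlapped for others. The summed intensity of 12 genes of mural cells, fibroblasts and meninges was 830 to 1019 in Glt25d2 and 17145 to 20657 in S100a10 arrays, with 8 of them under 50 in every Glt25d2 array. For 11 astrocyte genes the sums were 11594 to 21215 and 23470 to 29189, whereas 8 oligodendrocyte genes went the other way, at 17848 to 24606 and 10189 to 17014, none of these 3 lists overlapping between groups. S100a10 arrays lay wholly above in 55.1% of all tested probe sets and wholly below in 7.63%. Calls were 4 higher and 2 lower of 11 astrocyte genes, against 44.2% and 4.39% of all tested, so the rises are near that share. They were 0 and 2 of 8 for oligodendrocytes, and 9 and 1 of 11 tested for mural cells, fibroblasts and meninges. The sums overlapped for 12 interneuron genes, at 13790 to 19861 and 18441 to 23805, for 6 genes of oligodendrocyte precursors, at 1016 to 1456 and 1154 to 1562, for 8 microglial genes, at 379 to 699 and 689 to 1099, and for 8 endothelial genes, at 339 to 807 and 400.4 to 440.5. Excitatory and pan-neuronal genes, 12 in all, summed to 78743 to 91211 and 101043 to 103634, also without overlap. Their calls were 4 higher and 1 lower of 12, against 44.2% and 4.39% of all tested. Gad1, the GABA-synthesis enzyme of interneurons, was at 8838 to 14661 over all 6 arrays. In such bulk samples, fewer cells of a type and less RNA per cell cannot be told apart, and the part of these other cells in the results below was not tested.

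Among the pore subunits, once Glt25d2 replicate 3 was set aside, Gria3 was lower in S100a10 cells by both probe sets and Gria4 higher by both tested. Gria1 was lower by 1 of 2 probe sets; of the 3 for Gria2 1 was lower, 1 did not pass and 1, close to the limit of 50, was higher. In the fit of all 6 arrays no difference of Gria1 or Gria3 passed; for every probe set of these genes that array lay 5.04-fold to 9.38-fold below replicates 1 and 2.

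Gria1 encodes GluA1, the subunit most tied to activity-dependent delivery to synapses. Its brighter probe set, 1448972_at, read 1585, 1348 and 198 in the Glt25d2 arrays (replicates 1, 2 and 3) and 1089, 1462 and 1164 in the S100a10 arrays. The second, 1435239_at, read 1477, 1412 and 263 against 735, 827 and 1022. In both, Glt25d2 replicate 3 was the lowest of the 6 arrays, and only in the second did the other 2 Glt25d2 arrays lie above every S100a10 array. With all arrays the log2 differences were 0.71 (SE 0.82) and 0.06 (SE 0.70), with limma adjusted p of 0.498 and 0.949. Without replicate 3 they were -0.25 (SE 0.17, limma adjusted p = 0.232) and -0.76 (SE 0.16, limma adjusted p = 0.00717), so the 2 probe sets of Gria1 disagreed on the call and agreed on the sign. After quantile normalization of these 5 arrays both passed, at -0.71 and -1.23.

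Gria2 encodes GluA2, the subunit that sets calcium permeability. A RefSeq window around an annotated start of the gene (300 bases, GRCm38.p6) holds a stretch that resembles the element bound by REST, a repressor that keeps neuronal genes silent in other cells. The likeness to that element was not scored. The whole stretch printed below, flanking bases included, lies at chr3:80802986-80803011 on the plus strand, opposite to the gene. The capitals within it mark the searched letters.
Gria2: gattttAGCACCGCGGACAGcgcttt
The letters searched, AGCACCNNGGACAG on either strand, were cut from this window with the middle letters masked, so the match of Gria2 was fixed in advance. They occur in 17 of 32851 such windows, or 0.0517%, and in 1 of the 7 members that have a window (Gria1 and Gria3 have none in that table). Near variants in the other members were not searched. The match is a description of the sequence, and occupancy was not measured here.

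The brightest Gria2 probe set, 1434146_at, read 7981, 8413 and 1390 in Glt25d2 and 5126, 6059 and 7545 in S100a10 arrays. The next, 1421970_a_at, read 5091, 5089 and 594 against 2082, 2473 and 2232. In both, Glt25d2 replicates 1 and 2 were above, and replicate 3 below, all 3 S100a10 arrays. With all arrays the differences were 0.44 (SE 0.73, limma adjusted p = 0.636) and -0.14 (SE 0.87, limma adjusted p = 0.903). Without replicate 3 they were -0.41 (SE 0.18, limma adjusted p = 0.0880) and -1.17 (SE 0.13, limma adjusted p = 0.000372), the second a 2.26-fold lower level in S100a10 cells. The remaining probe set, 1453098_at, was close to the limit of 50 and went the other way: it read 63.9, 60.4 and 60.4 against 77.8, 82.8 and 76.8, a difference of 0.36 (SE 0.09, limma adjusted p = 0.0209) with all arrays and 0.35 (limma adjusted p = 0.0367) without replicate 3. Its value in 2 Glt25d2 arrays was identical, which understates the spread, and it turned to -0.57 after quantile normalization, so its direction depends on the scaling.

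Gria3 encodes GluA3, which pairs with GluA2 in a pool of receptors that cycles at synapses all the time. Probe set 1434728_at read 5267, 5345 and 1053 in Glt25d2 and 2011, 2944 and 2993 in S100a10 arrays, and 1420563_at read 1239, 907 and 113 against 398, 351 and 433. The S100a10 arrays lay between Glt25d2 replicate 3 and the other 2 Glt25d2 arrays in both. With all arrays the differences were -0.25 (SE 0.67) and -0.36 (SE 0.91), limma adjusted p 0.776 and 0.761. Without replicate 3 both passed, at -1.03 (SE 0.20, limma adjusted p = 0.00437) and -1.43 (SE 0.18, limma adjusted p = 0.000640), levels 2.04-fold and 2.70-fold lower in S100a10 cells.

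Gria4 encodes GluA4, a subunit with fast kinetics that is known from parvalbumin interneurons and thalamocortical circuits. Probe set 1435722_at read 282, 274 and 42.0 in Glt25d2 and 772, 675 and 785 in S100a10 arrays. Probe set 1440891_at read 163, 216 and 54.8 against 498, 316 and 767. The groups did not overlap in either, and Glt25d2 replicate 3 was again the lowest array. The differences were 2.33 (SE 0.77, limma adjusted p = 0.0498) and 1.99 (SE 0.60, limma adjusted p = 0.0373). Without replicate 3 they were smaller and much less variable, 1.42 (SE 0.13, limma adjusted p = 0.000162) and 1.39 (SE 0.36, limma adjusted p = 0.0140), or 2.67-fold and 2.63-fold higher in S100a10 cells. Both calls with all arrays were lost after quantile normalization, at 1.63 and 1.22 (limma adjusted p = 0.106 and 0.122), and after centring, at 1.56 and 1.22 (limma adjusted p = 0.137 and 0.136). After quantile normalization without replicate 3 the brighter probe set passed at 0.79 (limma adjusted p = 0.00287) and the other did not, at 0.71 (limma adjusted p = 0.155). The remaining probe set, 1421351_at, stayed at 7.8 to 15.7 in all arrays and was not tested. Of the interneuron genes, 5 of 11 tested rose and 1 fell, against 44.2% and 4.39% of all tested probe sets. The count that rose is near the background on the deposited scale only. After quantile normalization 5 rose and 1 fell, against 16.8% and 19.4%, and after centring 4 and 1, against 15.8% and 30.3%. Without replicate 3 after quantile normalization 5 rose and 3 fell, against 22.4% and 24%. On the deposited scale Lhx6, a transcription factor of somatostatin and parvalbumin cells, rose by 2.57, whereas Pvalb itself fell by 2.43. The part of interneurons in the Gria4 difference was not tested.

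**Figure D1:**
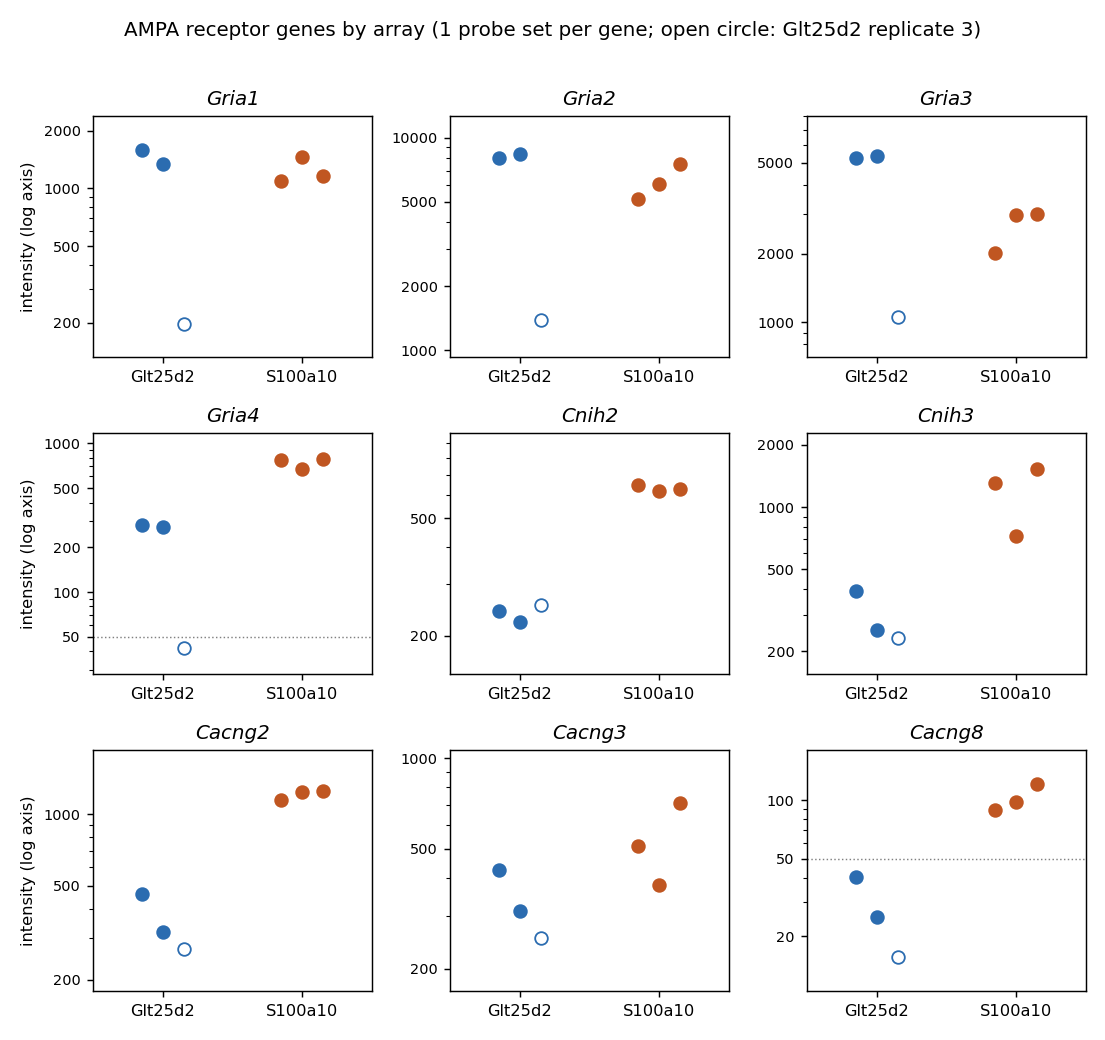
Intensity of the leading probe set (highest mean) of each gene in each array, on log axes, with Glt25d2 arrays in blue, S100a10 arrays in orange, Glt25d2 replicate 3 as an open circle and a dotted line at 50 where it falls in range. For Gria1, Gria2 and Gria3 the open circle is the lowest of the 6 arrays, whereas for Gria4, Cnih2, Cnih3, Cacng2 and Cacng8 all S100a10 arrays are above all Glt25d2 arrays.

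The low array did not touch all members alike. Of the 9 tested pore-subunit probe sets, 7 were over 4-fold lower in Glt25d2 replicate 3 than in replicates 1 and 2, against 7.61% of all tested probe sets and 0 of 7 auxiliary-subunit probe sets. The median log2 departure was -2.56 for the pore subunits and -0.44 for the auxiliary subunits, with 0.09 over all tested probe sets. Cnih2 was 0.13 above the mean of replicates 1 and 2, and the lowest auxiliary value, that of Cacng8, was -1.02. Every Glt25d2 value of Cacng8 was under 50, which limits how far a fall can be read. The exceptions among the pore subunits were Gria4 1440891_at at -1.78 and Gria2 1453098_at at -0.04, both of which lay near 50 in that array. Auxiliary and assembly genes outside the members were not all spared. Cacng5, Shisa9, Gsg1l, Abhd6, Cpt1c, Porcn, Olfm2 and Olfm3 were over 4-fold lower there by their leading probe sets. The other tested genes of that list, described further below, were not.

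**Figure D2:**
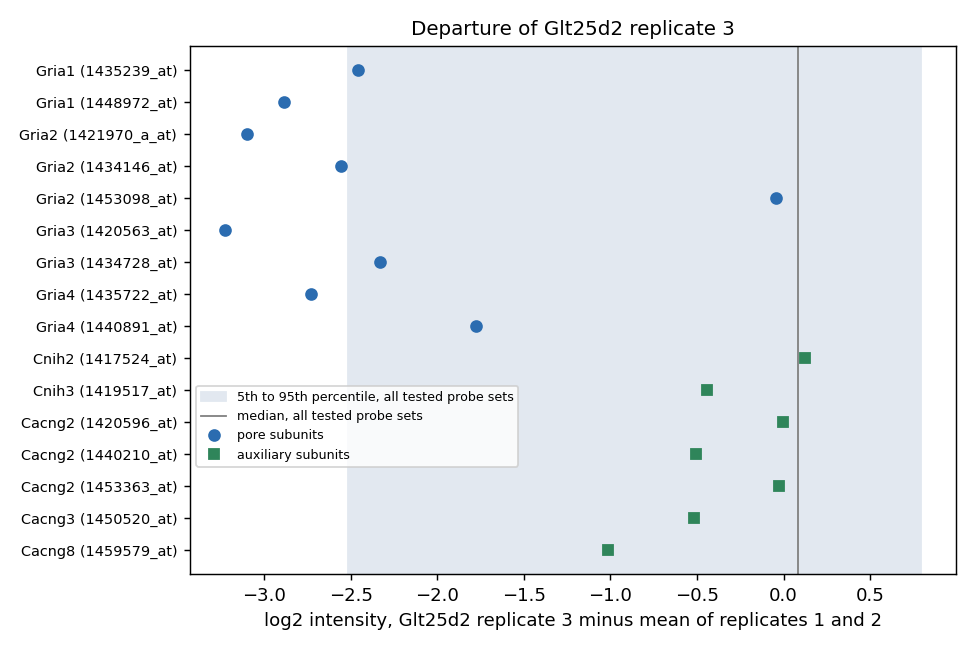
Departure of Glt25d2 replicate 3 from the mean of replicates 1 and 2 (log2 intensity, horizontal axis) for each tested probe set, with the 5th to 95th percentile of all 21291 tested probe sets shaded. Pore subunits (circles) reach down to -3.23, and auxiliary subunits (squares) stay between -1.02 and 0.13.

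Among the auxiliary subunits, 6 of 7 tested probe sets, covering Cnih2, Cnih3, Cacng2 and Cacng8, rose in S100a10 cells, and Cacng3 did not pass. On this scale 44.2% of all tested probe sets were called higher; after quantile normalization 4 of the 7 were, against 16.8%. Cornichons are carriers of the secretory pathway that in brain stay with the receptor at the surface and slow its closing. Cnih2 read 243, 222 and 253 in Glt25d2 and 650, 620 and 630 in S100a10 arrays. These groups were far apart against a spread of 16.1 and 15.3 (SD, n = 3 each). The difference was 1.41 (SE 0.10, limma adjusted p = 0.000164), a 2.65-fold higher level, and 1.45 without replicate 3. It remained past the threshold after quantile normalization, at 0.75 (limma adjusted p = 0.00690).

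Cnih3, the close relative of Cnih2, read 391, 254 and 232 in Glt25d2 and 1315, 721 and 1526 in S100a10 arrays. The S100a10 arrays varied by a factor of more than 2 among themselves, with replicate 2 the lowest, yet all were above the Glt25d2 arrays. The difference was 1.99 (SE 0.35, limma adjusted p = 0.00535), 3.97-fold, and 1.84 (SE 0.35) without replicate 3. After quantile normalization it was 1.38 (limma adjusted p = 0.0224).

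Cacng2 encodes stargazin, the TARP through which this family was found in the ataxic stargazer mouse. Its 3 probe sets all rose. The brightest, 1440210_at, read 460, 318 and 269 in Glt25d2 and 1147, 1239 and 1251 in S100a10 arrays, a difference of 1.83 (SE 0.21, limma adjusted p = 0.00109). Probe set 1420596_at read 111, 95.4 and 102 against 523, 546 and 551. The narrow spread within both groups goes with the lowest adjusted p of any member, 2.96e-05, at a difference of 2.40 (SE 0.10), or 5.26-fold. Probe set 1453363_at read 89.3, 86.4 and 86.4 against 226, 155 and 259, a difference of 1.25 (SE 0.20, limma adjusted p = 0.00405), with 2 identical Glt25d2 values. Without replicate 3 the differences were 1.66, 2.39 and 1.25 in the same order, all past the threshold. After quantile normalization the first 2 passed at 1.24 and 1.64 (limma adjusted p = 0.00453 and 0.000424) and 1453363_at did not, at 0.39 (limma adjusted p = 0.221).

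Cacng3, a cortical TARP close to stargazin in sequence, read 425, 311 and 254 in Glt25d2 and 511, 379 and 712 in S100a10 arrays. The groups overlapped, since S100a10 replicate 2 was below Glt25d2 replicate 1. The difference was 0.68 (SE 0.30, limma adjusted p = 0.108) with a 95% confidence interval of -0.05 to 1.41, so neither no change nor a difference above 2-fold lies outside it. Without replicate 3 it was 0.51 (interval -0.16 to 1.18, limma adjusted p = 0.155). After quantile normalization it was 0.00 (interval -0.70 to 0.71). Cacng8, the TARP best known from hippocampus, had 1 probe set, 1459579_at, that read 40.4, 25.1 and 15.7 in Glt25d2 and 89.3, 97.3 and 121 in S100a10 arrays. As every Glt25d2 array lay under 50, S100a10 cells had at least a 2.03-fold higher level, a bound against 50 on the deposited scale (limma adjusted p = 0.00560, and 0.00114 without replicate 3). The call was missed after quantile normalization, at 1.18 (limma adjusted p = 0.0501), and the fit without replicate 3 after quantile normalization gave 0.84 (limma adjusted p = 0.0325), which as a fold is below the bound. The other Cacng8 probe set, 1451864_at, stayed at 2.7 to 3.2 and was not tested.

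Over all members, 9 of the 16 tested probe sets were higher in S100a10 cells by limma with all arrays, against 44.2% of all tested probe sets, so a count of this size is near the background. None was lower, against 4.39% of all tested; at an unadjusted p under 0.05 the count lower was also 0. Without Glt25d2 replicate 3, 9 were higher, against 55% of all tested, and 4 were lower, against 5.99%. After quantile normalization of these 5 arrays 6 were higher and 7 lower, against 22.4% and 24% of all tested probe sets, and all 7 lower were probe sets of Gria1, Gria2 and Gria3. Quantile normalization of all 6 arrays gave 4 higher and 1 lower, against 16.8% and 19.4%, and centring gave 5 and 1, against 15.8% and 30.3%. Centring without replicate 3 gave 6 and 7, against 19.5% and 36.7%. With no filter 8 were higher and 1 lower (43.6% and 11.4%), with a mean of 50 in both groups 7 and 0 (35.3% and 3.82%), with a pseudocount of 16 9 and 0 (44.7% and 4.43%), and with 1 probe set per gene 4 and 0 of 9 (44.7% and 4.59%). The 1 lower with no filter was Cacng8 1451864_at, which stayed at 2.7 to 3.2 in all arrays, far under the limit of 50. The replicate number as a block gave 6 and 0 (35% and 2.62%). The median difference of the auxiliary probe sets was 1.83 with all arrays, 1.66 without replicate 3 and 0.84 after quantile normalization as well. That of the pore-subunit probe sets was 0.36, -0.41 and -0.71, and that of all tested probe sets 0.55, 0.52 and -0.06. The members that passed had to reach 50 in at least 1 group, so these counts describe the tested probe sets and support no claim about the set. With all arrays, 9 member probe sets had groups that did not overlap, all with S100a10 above, against 55.1% of all tested, and 0 had S100a10 below, against 7.63%. Without replicate 3, S100a10 arrays lay wholly above in 9, against 66.2%, and wholly below in 5, against 10.6%.

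**Figure D3:**
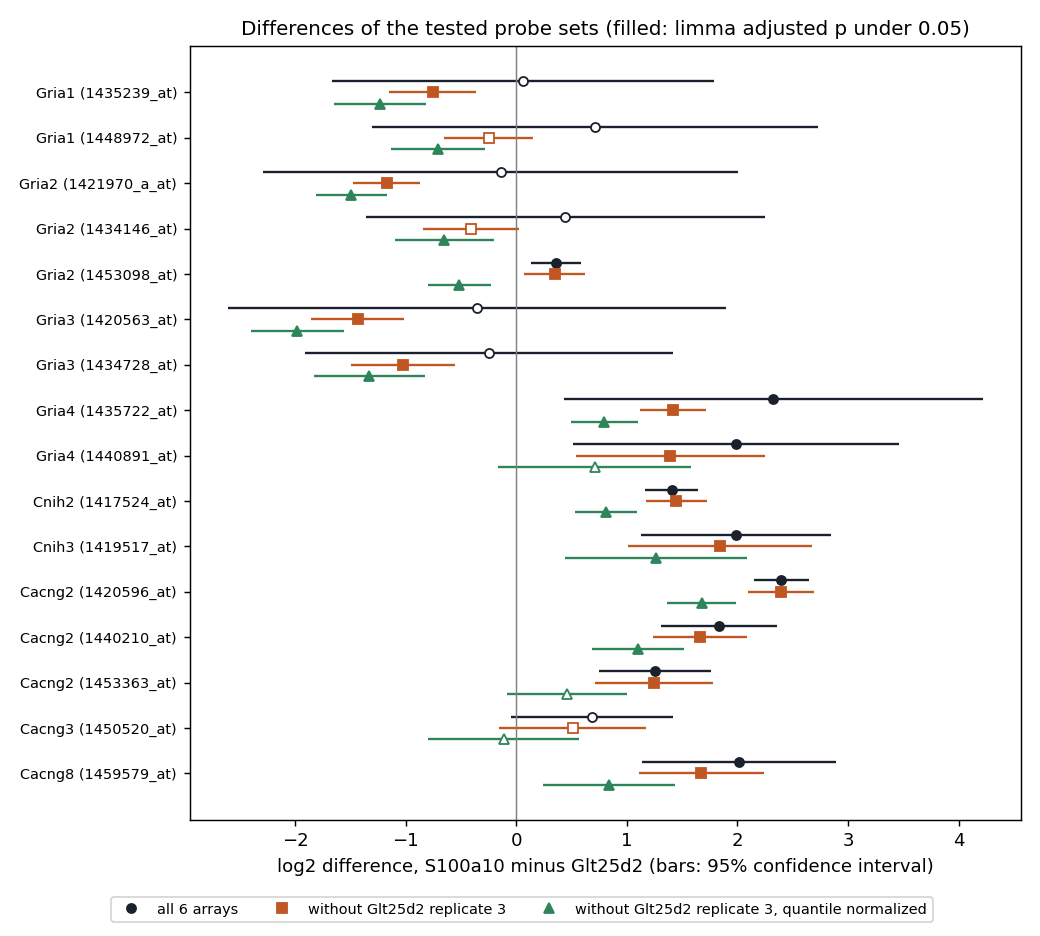
Log2 differences, S100a10 minus Glt25d2, of the 16 tested probe sets with 95% confidence intervals, from all 6 arrays (circles), without Glt25d2 replicate 3 (squares) and without that array after quantile normalization (triangles), filled where the limma adjusted p was under 0.05. Without that array the intervals of all pore-subunit probe sets but Gria2 1453098_at narrow and those of Gria3 lie wholly below 0. The intervals of Gria4 1435722_at, Cnih2, Cnih3, Cacng8 1459579_at and the 2 brighter of the Cacng2 probe sets stay above 0 in all 3 fits.

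Ratios between members within an array do not move when an array is scaled by a constant, and they ask whether the makeup of the receptor messengers differed. The log2 ratio of Gria4 to Gria2 was -4.82, -4.94 and -5.05 in Glt25d2 and -2.73, -3.17 and -3.27 in S100a10 arrays (leading probe sets). It barely varied within Glt25d2, replicate 3 included, both messengers being low together in that array. The ratio was higher in S100a10 cells by 1.88, a 3.69-fold change in GluA4 relative to GluA2 message, and by 1.83 without replicate 3, or 1.46 after quantile normalization. The ratio of Gria3 to Gria2 was -0.60, -0.65 and -0.40 in Glt25d2 and -1.35, -1.04 and -1.33 in S100a10 arrays, lower by 0.69, with no overlap, and by 0.61 without replicate 3. The ratio of Gria1 to Gria2 overlapped between the groups, at -2.60 ± 0.24 against -2.33 ± 0.33 (SD, n = 3 each). Both of these results depend on the Gria2 probe set. Without replicate 3, the leading Gria2 probe set differed by -0.41 and the next, 1421970_a_at, by -1.17. The leading probe sets of Gria3 and Gria1 differed by -1.03 and -0.25. Relative to 1421970_a_at, the leading Gria3 probe set was therefore not lower and that of Gria1 was higher in S100a10 cells. The Gria3 result depends on the Gria3 probe set and the arrays too. Its other probe set, 1420563_at, was at -1.43 without replicate 3, lower than 1421970_a_at. With all arrays the leading Gria3 probe set was at -0.25 and 1421970_a_at at -0.14. Gria4, at 1.42 without replicate 3, was higher relative to either of these Gria2 probe sets.

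Among the auxiliary subunits, the ratio of Cacng3 to Cacng2 was -0.11, -0.04 and -0.09 in Glt25d2 and -1.17, -1.71 and -0.81 in S100a10 arrays. It was lower in S100a10 cells by 1.15, or 2.22-fold, and without replicate 3 the difference was -1.15 as well. The groups did not overlap although Cacng3 itself did not pass. The ratio of Cnih3 to Cnih2 overlapped, at 0.25 ± 0.41 against 0.84 ± 0.55 (SD, n = 3 each). That of Cacng8 to Cacng2 overlapped too, at -3.76 ± 0.30 against -3.58 ± 0.18 (SD, n = 3 each), and rests on Cacng8 values under 50 in Glt25d2. In an exact 2-sided permutation test over the arrays, the 3 ratios without overlap had p = 0.1, the smallest that 20 splits of 3 against 3 allow, and 0.2 after Benjamini-Hochberg adjustment over the 6 ratios, so the design cannot carry any of them past 0.05. The other 3 had exact permutation p of 0.2 (Cnih3 over Cnih2), 0.3 (Gria1 over Gria2) and 0.6 (Cacng8 over Cacng2). A ratio shows unequal change and does not say which of the pair moved.

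**Figure D4:**
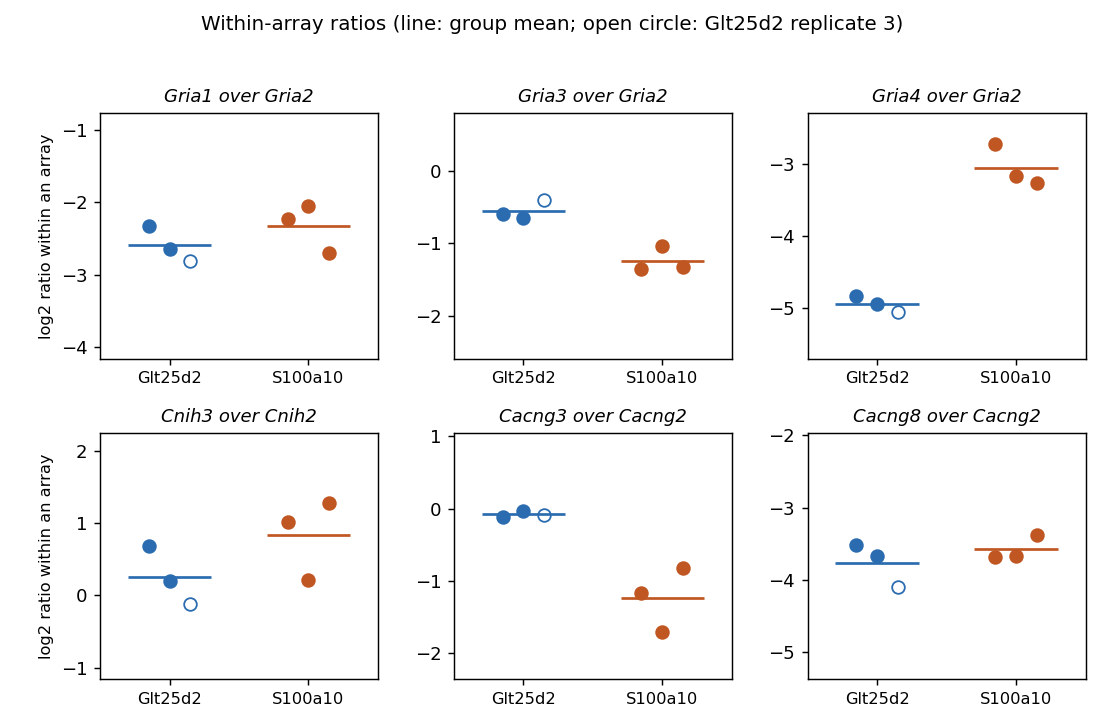
Within-array log2 ratios of leading probe sets by group, with group means as lines and Glt25d2 replicate 3 as an open circle; every panel spans the same height on its vertical axis. The groups are apart for Gria3 over Gria2, Gria4 over Gria2 and Cacng3 over Cacng2, and overlap in the other 3 panels.

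Other proteins that bind AMPA receptors gave a mixed picture. Of 20 listed auxiliary and assembly genes 18 were tested, each by its leading probe set, and 6 rose and none fell, against 44.2% and 4.39% of all tested probe sets, with a median of 0.80 against 0.55. Cacng4, a TARP known from glia and development, read 22.1 in every Glt25d2 array and 81.7, 128 and 99.9 in S100a10 arrays. Its level was at least 2.03-fold higher on the deposited scale (limma adjusted p = 0.000278). Cacng7, another TARP, was at least 1.60-fold higher on that scale (limma adjusted p = 0.000279), also with every Glt25d2 array under 50. The secreted synaptic olfactomedins Olfm2 and Olfm1 rose by 2.26 and 0.79, the receptor partner Prrt1 by 0.92 and Syndig1, a synaptic membrane protein that binds the receptor, by 0.68. After quantile normalization of all arrays, only Cacng4 and Olfm1 of these 6 still passed, at 1.35 and 0.61 (limma adjusted p = 0.00332 and 0.0466). There Cacng7 was at 0.12 (limma adjusted p = 0.471), below its bound. Without replicate 3, 9 rose and 2 fell, against 55% and 5.99% of all tested; the 2 were Cacng5 at -0.87 and Abhd6 at -0.44, a lipase that limits surface delivery of the receptor. After quantile normalization as well 3 rose and 5 fell, near the 22.4% and 24% of all tested. Porcn, an endoplasmic reticulum enzyme found in receptor complexes, shows the reach of the low array: it read 656, 555 and 24.3 in Glt25d2 and 944, 1202 and 1203 in S100a10 arrays.

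Of 26 genes for binding, clustering and trafficking 24 were tested, and 3 rose and 2 fell, a smaller share of rises than the 44.2% of all tested probe sets, with a median of 0.14. Epb41l1, which links the GluA1 tail to the actin cytoskeleton, rose 2.01-fold (limma adjusted p = 0.000771). Dlg4, the scaffold protein PSD-95, rose by 0.70 on the log2 scale, and Grip2, which holds the tails of GluA2 and GluA3, by 0.55. Vwc2l, a secreted protein related to a known receptor partner, fell by 0.79, and Pick1, which takes GluA2 back into the cell, fell by 0.30. The Pick1 call was lost without replicate 3, at -0.27 (limma adjusted p = 0.0920), whereas Epb41l1, Dlg4, Grip2 and Vwc2l passed there too. After quantile normalization without replicate 3 the counts were 1 higher and 6 lower of 24, against 22.4% and 24% of all tested, so the share lower is that of the background. In that fit Dlg4 was at -0.02 and Grip2 at -0.16, neither past the threshold, whereas Epb41l1 was at 0.62, Vwc2l at -1.54 and Pick1 at -0.75, all 3 past it.

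All 3 genes of RNA editing enzymes rose with all arrays and without replicate 3, where 44.2% and 55% of all tested probe sets were called higher. Adarb1, the enzyme that edits the pore codon of Gria2, read 263, 317 and 398 in Glt25d2 and 665, 565 and 712 in S100a10 arrays, a difference of 1.01 (SE 0.19, limma adjusted p = 0.00675). Adarb2, a relative with no known editing activity that is abundant in some interneurons, differed by 1.12 and Adar by 0.77. None of the 3 passed after quantile normalization of all arrays, and without replicate 3 as well Adarb1 alone did, at 0.53 (limma adjusted p = 0.0297). Editing itself cannot be read from these intensities.

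For each pore subunit, the genes outside these lists whose centred log2 values over the 6 arrays were most like its own by Pearson correlation were looked up. They were Slc9a9 and Mfap3 for Gria1, B3galt2 and Tenm3 for Gria2, Crim1 and Abcg1 for Gria3, and Cntn5 and Dcbld2 for Gria4, with r of 0.996 to 0.999 over 6 arrays. All 8 were lowest in Glt25d2 replicate 3, as were the pore subunits they were matched to, so this follows from how they were picked. B3galt2, a sugar transferase, read 569, 646 and 64.3 in Glt25d2 and 301, 375 and 494 in S100a10 arrays. Between members, r was 0.96 for Gria1 and Gria2 and 0.91 for Gria2 and Gria3, and it was 0.97 for Cacng2 and Cacng8 and 0.88 for Cnih2 and Cacng2, but -0.71 for Gria3 and Cnih2. These values share the same 6 libraries and describe only them.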

How the data were processed

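The authors deposited linear, GCRMA-normalized intensities, as the submitters' processing notes and series text state, with no version named. RNA was amplified in a pair of cycles from 15 ng, labelled with biotin and hybridised, per the labels' protocols. Although the series text speaks of averaged replicates, the table has a column for each of the 6 arrays, and these entered the fits. The series text also proposes the limit of 50 applied here and a list of probe sets that was not used here.

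Of 45101 probe sets 64 controls were left out. Genes were named from the platform annotation (34945 probe sets with 1 symbol, 932 with several, 9160 with none), and a gene's leading probe set is the tested one with the highest mean log2 value. Log2 intensities without a pseudocount entered a 2-sided limma 3.58.1 fit (R 4.3.3, lmFit and eBayes, no block) over 21291 probe sets, with Benjamini-Hochberg adjustment over all of them and a threshold of 0.05. A difference is S100a10 minus Glt25d2. The number of arrays limits the precision, and p-values measure the spread between arrays that the titles call biological replicates.

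The named genes were every member probe set, both drivers and 2 genes most like each pore subunit. Up to 5 called genes of each other list and direction with the largest differences were also named. Syndig1, Cacng5, Shisa9, Gsg1l, Abhd6, Cpt1c, Porcn, Olfm3, Gad1, Lhx6 and Pvalb were named after their values were seen. Members and lists were chosen with earlier results of these data known. Alternatives were no filter, a mean of 50 in both groups, a pseudocount of 16, a replicate block, 1 probe set per gene, quantile normalization, centring on array medians, each array left out, and both scalings without Glt25d2 replicate 3. Sequence came from RefSeq tables (GRCm38.p6). Plots were drawn with matplotlib 3.10.9 and tables made with pandas 2.3.3 (Python 3.11.15).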

Additional observations from a re-analysis of the deposited data

How the results depend on the processing

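The differences of Cnih2, Cnih3 and Cacng2 (leading probe sets) kept their sign and passed in every alternative run, and that of Cacng8 in all but quantile normalization among those that tested it; a mean of 50 in both groups left it out. Member probe sets called higher numbered 9 as reported, 4 after quantile normalization, 5 after centring, 4 of 9 with 1 probe set per gene and 7 to 9 with 1 array left out. Those called lower numbered 0, 1 without a filter, 1 after quantile normalization, 1 after centring, 7 in either scaling without Glt25d2 replicate 3, and 0 to 4 with 1 array left out, the 4 being without Glt25d2 replicate 3. The 1 without a filter was Cacng8 1451864_at, at 2.7 to 3.2 in all arrays. The Gria1 difference of 0.71 turned to -0.057 after centring, -0.71 after quantile normalization without that array and -1.0004 after centring without it, within -0.25 to 1.25 over single arrays left out. For Gria2, 0.44 became -0.33, -0.65 and -1.16, within -0.41 to 0.89, and for Cacng3, 0.68 became -0.087, -0.12 and -0.24. Gria3, at -0.25, spanned -1.03 to 0.15 over arrays left out, with the positive signs without Glt25d2 replicate 1 or 2. The brighter Gria4 probe set passed in 5 of 15 alternatives and kept its sign in all.

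Over all probe sets the counts higher and lower were 19640 and 5131 without a filter, 3574 and 4128 after quantile normalization, 3363 and 6447 after centring, 5285 and 542 with 1 probe set per gene, and, without Glt25d2 replicate 3, 4771 and 5119 or 4160 and 7817 in the same scalings; single arrays left out gave 7354 to 11720 and 610 to 1276. In the other 3 AMPA receptor lists, with 18, 24 and 3 genes tested, 12 genes were higher and 2 lower, against 44.2% and 4.39% of all tested probe sets. This became 3 and 4 after quantile normalization (16.8% and 19.4% of all tested), and 1 and 14 after centring (15.8% and 30.3%). Without Glt25d2 replicate 3 it was 5 and 11 after quantile normalization (22.4% and 24%) and 3 and 24 after centring (19.5% and 36.7%). With a mean of 50 in both groups 1 was lower (3.82%), with 16 genes of the first list tested. The counts were 8 to 15 and 1 to 3 with 1 array left out. The ratio of Gria4 to Gria2 moved from 1.88 to 1.46 after quantile normalization and 1.45 without Glt25d2 replicate 3 as well. The ratio of Gria1 to Gria2 turned to -0.016 and -0.056 in these, and that of Cacng8 to Cacng2 to -0.064 and -0.26, or -0.29 with a pseudocount of 16. The cause of these shifts was not tested.

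With the replicate block, 558 probe sets, or 2.62% of all tested, were lower, and 1 other listed gene was lower. In that fit 6 member probe sets were higher, against 35% of all tested. Arrays with the same number deviated from their group means with correlations of -0.45, 0.22 and -0.24. Those with different numbers gave -0.40 to 0.45. These values cannot settle whether the arrays were prepared in pairs.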
